A study of Caenorhabditis elegans with 78 samples.

Results

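The comparison described here sets a quadruple mutant, *jmjd-5;jmjd-3.1/2/3*, against a double mutant, *jmjd-5;jmjd-1.2*, of *Caenorhabditis elegans*, by RNA sequencing of whole young adults. The 8 libraries, 4 per strain, were chosen by their genotype labels from the 78 samples of the series, 24 of which are whole-worm RNA libraries of 6 strains. The quadruple mutant carries the allele *zr1234* of *jmjd-5* together with *gk384* in *jmjd-3.1*, *tm3121* in *jmjd-3.2* and *tm3197* in *jmjd-3.3*. The double mutant carries the same *jmjd-5* allele and *zr1010* in *jmjd-1.2*. Both therefore share the *jmjd-5* allele, in which conserved amino acids of the catalytic JmjC domain are exchanged, and differ in which further demethylases they lack. The remaining strains, also with 4 libraries each, were the *jmjd-3.1/2/3* triple mutant, the *jmjd-1.2* single mutant, the *jmjd-5* single mutant and the wild-type strain N2. All animals were collected at 25°C in generation F3. The sample titles number the 4 libraries of a strain, and the authors' methods describe them as independent cultures. Each mutant is a single strain, so that an allele and whatever else differs between strains cannot be told apart. In RNA of whole worms, fewer cells of a type and less RNA per cell cannot be told apart either.

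JmjC proteins are oxygen-dependent enzymes, many of which remove methyl groups from histone lysines. JMJD-5 is a putative demethylase of dimethylated H3K36, a mark of transcribed genes. The products of the *jmjd-3* genes belong to the UTX/JMJD3 family, which removes methyl groups from H3K27, the mark laid down by Polycomb group enzymes on silent genes. JMJD-1.2 is the worm relative of mammalian PHF8, which removes methyl groups from H3K9 and H3K27, and both JMJD-1.2 and JMJD-3.1 are known in worms as activators of stress responses. The comparison thus asks what the loss of one set of demethylases does relative to the loss of another when *jmjd-5* is already mutated.

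Library totals were 3087933 to 9114419 counts in the quadruple mutant and 3751667 to 8524294 in the double mutant. Culture 2 was the shallowest of both strains and stood apart from its 3 sister cultures. The mean chi-square per gene between 2 cultures of a strain was 9.4 to 18.7 for pairs with culture 2 and 3.57 to 5.33 for the others in the quadruple mutant, and 9.77 to 15.7 against 1.68 to 3.34 in the double mutant. On the first principal component of the 8 libraries (51.6% of the variance) the quadruple mutant lay at -1.77, -49.23, -5.34 and -16.62 for cultures 1 to 4, and the double mutant at 39.45, -30.15, 25.77 and 37.9. Counts are therefore also given without culture 2 of the strains where this moves them. In N2, cultures 2 and 4 differed by no more than sampling noise (mean chi-square per gene 0.976), and *jmjd-5* cultures 3 and 4 by little more (1.03). Whether the libraries of these pairs are separate cultures is therefore not certain. With each of these pairs summed to 1 library, the comparison below gave 62 calls upward and 193 downward. The other pairs of *jmjd-5* cultures lay at 1.11 to 1.74, so that the doubt may not end with cultures 3 and 4. Those other pairs were not summed.

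The *jmjd-1.2* transcript checked the labels. Its counts were 2256, 611, 1574 and 1627 in the quadruple mutant, against 4, 1, 13 and 11 in the double mutant. It was thus almost absent from the double mutant, with a log2 fold change (quadruple over double mutant throughout) of 7.75 ± 0.16 (SE, adjusted p = 7.7e-21). The transcripts of the other mutated genes remained measurable in the quadruple mutant, and whole-gene counts do not check alleles that leave a transcript. *jmjd-3.1* had 21.6, 17.8, 23.4 and 18.6 CPM (TMM-normalized expression scaled to library size) in the quadruple mutant and 43.5, 23.7, 39.1 and 39.9 CPM in the double mutant. These libraries did not overlap, and the log2 fold change was -0.86 ± 0.15 (SE, adjusted p = 0.00050), short of the fold required for a call. N2 had 17.6 to 22.9 CPM, the triple mutant 19.4 to 29.2 CPM, the *jmjd-1.2* single mutant 23.3 to 33.4 CPM and the *jmjd-5* single mutant 33.9 to 39.4 CPM. The quadruple mutant was thus at the level of N2, and the difference does not check the *jmjd-3.1* allele. For *jmjd-3.2* and *jmjd-3.3* the log2 fold changes were 0.36 ± 0.38 and -0.21 ± 0.20 (SE, adjusted p = 0.58 and 0.53), at means of 2.57 and 4.96 CPM in the quadruple mutant. *jmjd-5* itself differed by 0.17 ± 0.06 (SE, adjusted p = 0.037). Of the remaining histone demethylases none was called, and *jmjd-1.1* came closest with a log2 fold change of -0.57 ± 0.14 (SE, adjusted p = 0.0085).

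Of 15524 genes tested, 64 were higher (0.412%) and 239 lower (1.54%) in the quadruple mutant, where a call needed an adjusted p under 0.01 together with a change of 1 or more on the log2 scale (1.95% in either direction). The median log2 fold change was 1.46 among the genes called higher and -1.24 among those called lower, and 0.01 over all genes tested. The 4 and 4 libraries did not overlap for 56 of the 64 genes called higher and for 114 of the 239 called lower, against 4.24% and 4.25% of all genes tested in these directions (8.49% in all). Many called genes were weakly expressed, with 24 and 63 of them below 5 CPM on average in both strains. For 207 of the 239 genes called lower, the mean of the *jmjd-5* single mutant lay nearer to the double mutant than to the quadruple mutant, and for 227 of the 239 the mean of N2 lay nearer to the quadruple mutant. Among the 64 genes called higher these numbers were 37 and 43. Nearer did not mean equal. Over the 239, the quadruple mutant lay above N2 by a median of 1.24 on the log2 scale (105 called). The double mutant lay above it by 2.45 (221 called). Over the 64, these medians against N2 were 0.34 (18 called) and -0.91 (32 called). No share over all genes tested stands beside the nearness numbers. They were taken on genes selected by the difference between the quadruple and double mutants.

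These counts rest on an estimate of the spread shared by all 6 strains. Between cultures of the other 4 strains the mean chi-square per gene was 0.976 to 7.43. Pairs of compound mutant libraries with culture 2 had 9.4 to 18.7. The shared estimate, and with it the SE and adjusted p given here, can therefore be too small for the 8 libraries compared. With the 8 libraries of the compound mutants alone, 21 genes were called higher and 20 lower, and all 41 were among the 303. Leaving out 1 library moved the counts in both directions. Without culture 2 of the double mutant 97 genes were called higher and 544 lower, and without culture 1 of the double mutant 39 and 83. The number called higher was 41 without culture 1 or without culture 4 of the quadruple mutant. The number called lower was 139, 145 and 157 without culture 1, 2 or 4 of the quadruple mutant, and 130 and 107 without culture 3 or 4 of the double mutant. Without culture 2 of both strains 122 genes were called higher and 444 lower, and 297 of the 303 were among them.

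The cytosolic heat shock genes *hsp-70*, *hsp-16.2* and *hsp-16.41* were lower in the quadruple mutant, and the difference lay in the strains that lack *jmjd-1.2*. *hsp-70* encodes an inducible Hsp70 chaperone that worms hardly express without stress. It had 22.9, 16.3, 12.6 and 21 CPM in the quadruple mutant, against 87.6, 91, 115 and 96.8 CPM in the double mutant, with a log2 fold change of -2.39 ± 0.17 (SE, adjusted p = 1.5e-09). The *jmjd-1.2* single mutant had 95.2 to 120 CPM, while the triple mutant, the *jmjd-5* single mutant and N2 spanned 14.4 to 33.1 CPM. *hsp-70* was thus high in both strains without *jmjd-1.2* and low in the other 4, with no overlap between any library of one kind and of the other. In the comparison of the *jmjd-3.1/2/3* triple mutant with the *jmjd-1.2* single mutant, which is the same contrast with *jmjd-5* intact and shares no library, the log2 fold change was also -2.39 ± 0.17 (SE, adjusted p = 2.1e-09).

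*hsp-16.2* and *hsp-16.41* encode small heat shock proteins of the alpha-crystallin family and are neighbours in the genome. *hsp-16.2* had 20.2, 17.4, 14.2 and 19.8 CPM in the quadruple mutant and 39.7, 52.4, 49.6 and 45.0 CPM in the double mutant, a log2 fold change of -1.36 ± 0.12 (SE, adjusted p = 3.5e-08). *hsp-16.41* had 18.1, 18.9, 14.4 and 20.8 CPM in the quadruple mutant and 38.1, 46.5, 44.9 and 41.3 CPM in the double mutant, a log2 fold change of -1.24 ± 0.13 (SE, adjusted p = 7.5e-07). As for *hsp-70*, every library of the *jmjd-1.2* single mutant lay above every library of the triple mutant, the *jmjd-5* single mutant and N2. For *hsp-16.2* the *jmjd-1.2* libraries had 39.1 to 43.5 CPM and the other 3 strains 12.5 to 25.1 CPM. For *hsp-16.41* they had 34.8 to 39.3 CPM and the other 3 strains 14.3 to 24.7 CPM. Reads that match more than one place were discarded by the authors, so that counts of such related genes cover their unique stretches only.

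No other tested gene of the heat shock list was called. The list names 21 genes, of which 14 were tested. In each compound mutant 6 of its genes had no counts, so that nothing is known of a change in them. Of 14 tested members 3 were called lower and 0 higher (1.54% and 0.412% of all genes tested). The median log2 fold change was 0.03, beside 0.01 over all genes tested. The log2 fold change was 0.12 for *hsp-1*, the constitutive Hsp70, 0.13 for *daf-21*, the worm Hsp90, and 0.07 for *hsf-1*, the heat shock transcription factor. *hsp-4* and *hsp-3*, the chaperones of the endoplasmic reticulum, had 0.02 and 0.03. *hsp-12.6*, a small heat shock gene under control of insulin signalling, had -0.63 without passing the test. Each of the 3 genes was called in the 8 libraries alone and with every library left out. None of the 12 tested genes of the mitochondrial unfolded protein response was called, and their median log2 fold change was 0.05.

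**Figure D1:**
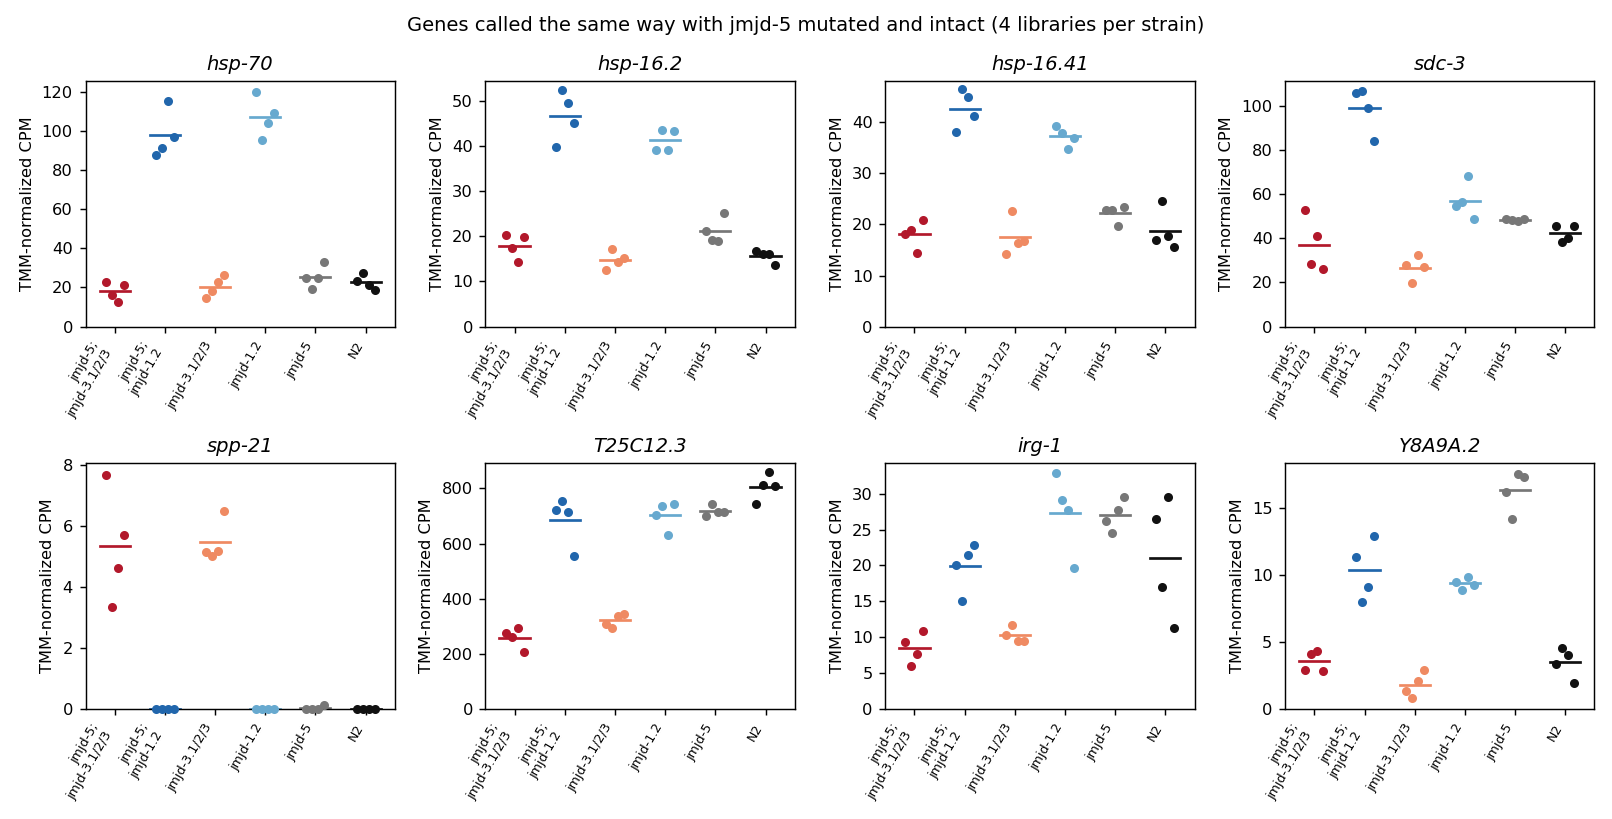
TMM-normalized expression (CPM, linear axis from 0) of 8 genes in the 4 libraries (points) of each of 6 strains, with the strain mean as a line. The 3 heat shock genes and *sdc-3* are higher in the double mutant than in the quadruple mutant, *spp-21* has reads almost only in both strains without *jmjd-3.1/2/3*, and *T25C12.3* and *irg-1* have their lowest strain means in the same strains.

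In total 37 genes were called the same way in both backgrounds, 9 higher (with *jmjd-1.2* itself) and 28 lower, and 5 were called the other way. The 9 were 14.1% of the 64 genes called higher here and 13.2% of the 68 called higher in the triple against the *jmjd-1.2* single mutant (0.438% of genes tested). The 28 were 11.7% of the 239 called lower here and 20.3% of the 138 called lower there (0.889%, and 1.33% in either direction). Over all genes tested, 53.5% had the same sign in both backgrounds.

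Some of these genes separated the strains without *jmjd-3.1/2/3* from the others, in every library or by their strain means. *spp-21*, which encodes a saposin-like protein of a family with antimicrobial members, had 7.67, 3.34, 4.62 and 5.7 CPM in the quadruple mutant and 0 counts in every library of the double mutant. Against the level of 3 counts in each double mutant library it was at least 10.7-fold higher. The triple mutant had 5.02 to 6.48 CPM, and the *jmjd-1.2* single mutant, the *jmjd-5* single mutant and N2 together spanned 0 to 0.129 CPM. *T25C12.3* had 274, 261, 295 and 205 CPM in the quadruple mutant, against 722, 755, 714 and 555 CPM in the double mutant, with a log2 fold change of -1.41 ± 0.11 (SE, adjusted p = 3.4e-09). The triple mutant lay at 295 to 344 CPM, and the *jmjd-1.2* single mutant, the *jmjd-5* single mutant and N2 all lay at 630 CPM or above. *irg-1*, which responds to infection, had 9.33, 5.94, 7.65 and 10.9 CPM in the quadruple mutant and 20.1, 15.1, 21.4 and 22.9 CPM in the double mutant, a log2 fold change of -1.2 ± 0.22 (SE, adjusted p = 0.00090). It was not called in the 8 libraries alone. The triple mutant had 9.39 to 11.7 CPM and overlapped N2 at 11.3 to 29.6 CPM, so that *irg-1* separated these strains by their means only. *T25C12.3* and *irg-1* fall outside the rule for named genes and were chosen after their values were seen.

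*Y8A9A.2* had 2.9, 4.08, 4.33 and 2.85 CPM in the quadruple mutant and 11.3, 8.00, 9.1 and 12.9 CPM in the double mutant, a log2 fold change of -1.63 ± 0.21 (SE, adjusted p = 2.1e-05). With *jmjd-5* intact the value was -2.36. *dod-21*, a gene repressed by the FOXO factor DAF-16, gave 3 counts over the quadruple mutant libraries and 66 over those of the double mutant, a ratio of 0.0477 (95% interval 0.0096 to 0.146, exact binomial, counting error only). *Y110A2AL.1* gave 2 and 39 counts, a ratio of 0.0538 (0.0063 to 0.208). Both were also called lower with *jmjd-5* intact, where the triple mutant had no counts. These 2 were likewise chosen after their values were seen.

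*sdc-3*, a zinc finger gene that recruits the dosage compensation complex to the X chromosomes, had 52.9, 28.6, 41 and 26.1 CPM in the quadruple mutant. The double mutant had 106, 107, 99.0 and 84.0 CPM, and the log2 fold change was -1.36 ± 0.16 (SE, adjusted p = 2.6e-06). No library of the quadruple mutant reached those of the double mutant. With *jmjd-5* intact the value was -1.10 ± 0.16 (SE, adjusted p = 5.6e-05). Strain means were 37.1 and 99.0 CPM in the quadruple and double mutants, 26.7 CPM in the triple and 57 CPM in the *jmjd-1.2* single mutant, 48.4 CPM in the *jmjd-5* single mutant and 42.5 CPM in N2. The double mutant thus stood above all other strains. *sdc-3* was the only one of 21 tested genes of dosage compensation and sex determination to be called (4.76%, against 1.95% of all genes tested). The median of that list was 0.06.

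**Figure D2:**
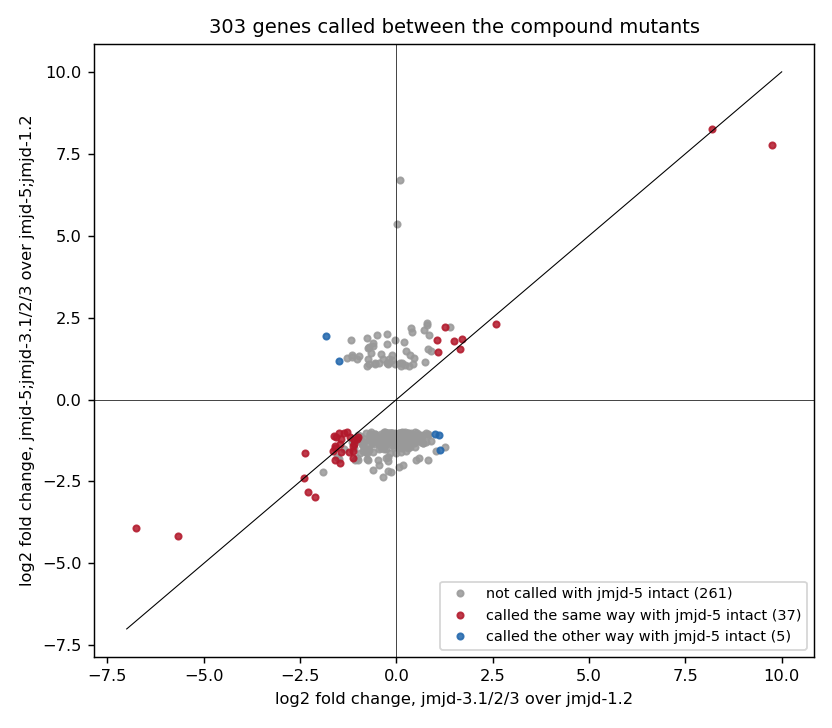
Log2 fold changes of the 303 genes called between the compound mutants (vertical axis, quadruple over double mutant) against those of the triple over the *jmjd-1.2* single mutant (horizontal axis). Each point is a gene, coloured by its call with *jmjd-5* intact (37 the same way, 5 the other way, 261 not called), and the diagonal marks equal values. Most genes lie near 0 on the horizontal axis.

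Among called genes with separated libraries and at least 5 CPM in every library of the higher strain (30 higher and 61 lower), the 12 with the largest increases and the 12 with the largest decreases were taken. Among these increases *F56A4.3* came next after *jmjd-1.2*. It gave 245 counts over the quadruple mutant libraries and 2 over those of the double mutant, a ratio of 129 (95% interval 35.2 to 1070, exact binomial). Its neighbour *srbc-15*, a gene of the chemoreceptor family, gave 98 and 2 counts, a ratio of 51.5 (13.9 to 431). Both genes were also at 0 counts in N2, while *F56A4.3* had 5.69 to 8.56 CPM across the *jmjd-1.2*, *jmjd-5* and triple mutants. The double mutant was thus the only mutant that resembled N2 here.

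*asm-3* encodes an acid sphingomyelinase, an enzyme that splits sphingomyelin into ceramide. It had 55.1, 43.1, 39.3 and 44.1 CPM in the quadruple mutant and 11.9, 14.8, 9.80 and 10.8 CPM in the double mutant, with a log2 fold change of 2.00 ± 0.20 (SE, adjusted p = 4.4e-07). The double mutant was the lowest of all strains, since the other 4 spanned 18.8 to 76.9 CPM. *Y48E1B.8* had 60, 59.8, 42.9 and 58.5 CPM in the quadruple mutant and 12.4, 16.3, 15.1 and 13.5 CPM in the double mutant, a log2 fold change of 1.97 ± 0.13 (SE, adjusted p = 4.1e-10). Here too the double mutant was lowest, below the *jmjd-5* single mutant at 23.3 to 33.5 CPM.

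*R08F11.4* followed the other order, since the quadruple mutant was the strain that stood apart. It had 32.9, 32.3, 34.1 and 33.9 CPM there and 9.82, 9.18, 9.1 and 11.3 CPM in the double mutant, a log2 fold change of 1.74 ± 0.11 (SE, adjusted p = 2.8e-10). The other 4 strains spanned 2.59 to 10.5 CPM. *C07G1.7* had 14.1, 10.4, 14.3 and 9.91 CPM in the quadruple mutant and 1.70, 2.07, 2.66 and 3.26 CPM in the double mutant. *lips-14*, a lipase-related gene, had 13.7, 8.91, 13.4 and 11.4 CPM in the quadruple mutant and 2.67, 3.56, 3.5 and 4.13 CPM in the double mutant. Both were also called higher with *jmjd-5* intact, *C07G1.7* by 2.57 and *lips-14* by 1.05 on the log2 scale. *col-158*, *C08F11.7*, *dhs-26*, *T22B7.7* and the F-box gene *fbxc-28* complete the 12, at log2 fold changes of 2.21, 2.18, 1.94, 1.70 and 1.6. Apart from *fbxc-28*, all 12 remained called in each of 21 alternatives tried, and *fbxc-28* missed only the test against a log2 fold change of 1.

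**Figure D3:**
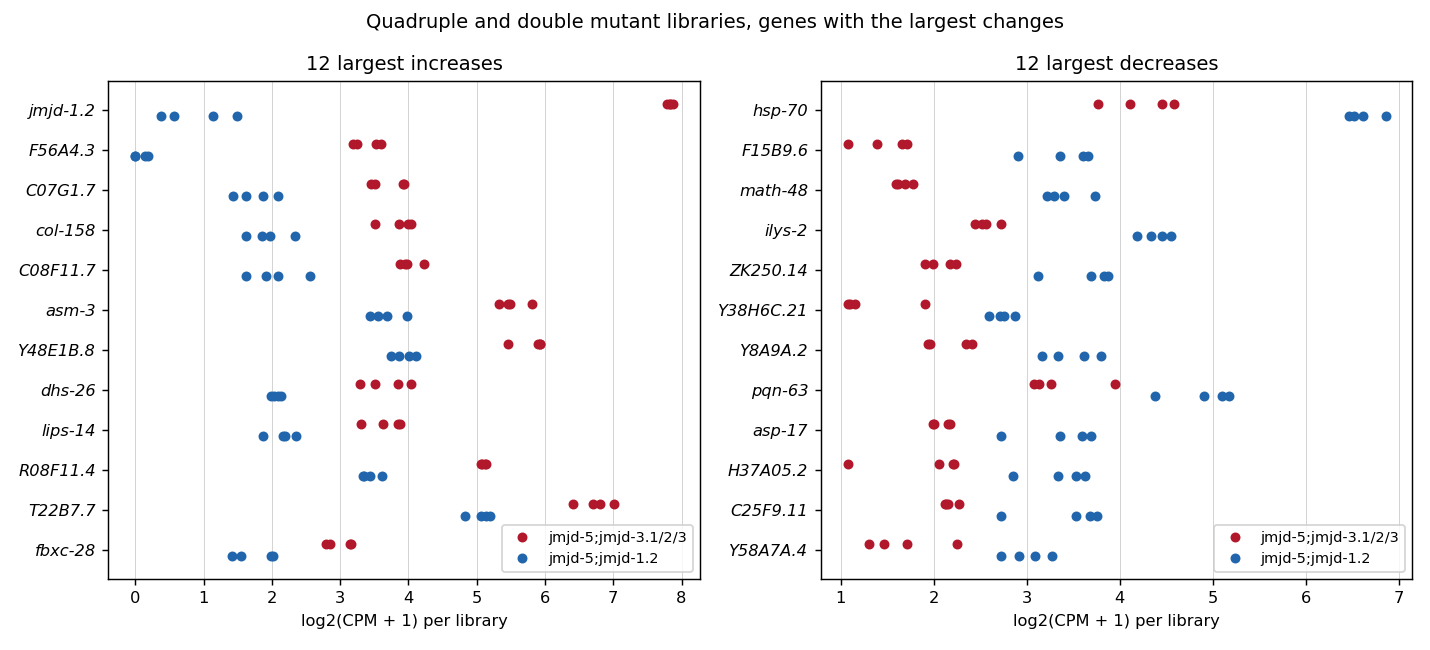
Log2(CPM + 1) of the 12 genes with the largest increases (left) and the 12 with the largest decreases (right) in the 4 libraries of the quadruple mutant (red, upper row of each gene) and of the double mutant (blue, lower row). Libraries of the 2 strains do not overlap for these genes, which the rule required.

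Among the 12 decreases under the same limits, at least 5 CPM included, *F15B9.6* came next after *hsp-70*, with 2.28, 1.11, 2.17 and 1.63 CPM in the quadruple mutant and 11.6, 6.52, 9.24 and 11.2 CPM in the double mutant (log2 fold change -2.36 ± 0.24, SE, adjusted p = 4.4e-07). *math-48*, of the MATH domain family whose members serve as substrate adaptors for ubiquitin ligases, had 2.07, 2.23, 2.02 and 2.44 CPM in the quadruple mutant and 9.58, 8.30, 8.82 and 12.3 CPM in the double mutant (log2 fold change -2.18 ± 0.22, SE, adjusted p = 4.7e-07). Its neighbour *ZK250.14* had 3.73, 2.97, 2.74 and 3.53 CPM in the quadruple mutant and 13.7, 7.7, 11.9 and 13.2 CPM in the double mutant. For *math-48* the double mutant stood above the other 5 strains, which spanned 0.226 to 3.72 CPM.

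*ilys-2* encodes an invertebrate-type lysozyme, a class of enzymes that degrade bacterial cell walls. It had 5.6, 4.45, 4.91 and 4.75 CPM in the quadruple mutant and 19.2, 17.2, 21 and 22.4 CPM in the double mutant, with a log2 fold change of -2.0 ± 0.15 (SE, adjusted p = 4.8e-09). All other strains lay at or below 9.08 CPM. The neighbouring lysozyme gene *ilys-3* was lower as well, by -1.47 ± 0.27 (SE, adjusted p = 0.00082) at 0.742 to 1.90 CPM in the quadruple mutant and 2.96 to 4.34 CPM in the double mutant, a gene named for its place beside *ilys-2*. With the 8 libraries alone *ilys-3* was not called. *asp-17*, an aspartyl protease gene, had 3.01, 2.97, 3.47 and 3.53 CPM in the quadruple mutant and 11.9, 5.63, 9.24 and 11.1 CPM in the double mutant. With *Y8A9A.2*, the other decreases were those of *Y38H6C.21*, *pqn-63*, *H37A05.2*, *C25F9.11* and *Y58A7A.4*, with log2 fold changes of -1.84, -1.63, -1.59, -1.58 and -1.56. Except *pqn-63*, these 5 were not called in the 8 libraries alone. *pqn-63* was not called without culture 1 or 4 of the quadruple mutant or without culture 1, 3 or 4 of the double mutant.

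Among cuticle genes more were called lower than higher in the quadruple mutant. The cuticle is the collagen exoskeleton that the epidermis renews at every moult. Of 137 tested cuticle collagens, 12 were called lower and 1 higher (9.49% in all, against 1.95% of genes tested), and 104 had a negative log2 fold change (75.9%, against 48.5% of genes tested). The median log2 fold change was -0.34, beside 0.01 over all genes tested. With *jmjd-5* intact the median was 0.16 and 33 of the 137 were negative. The difference between backgrounds was itself called lower for 19 collagens and higher for 0 (1.81% and 1.09% of all genes tested). *col-176* had 10.6, 5.94, 17.3 and 12.0 CPM in the quadruple mutant and 46.3, 16.9, 30.2 and 33.4 CPM in the double mutant, a log2 fold change of -1.44 ± 0.25 (SE, adjusted p = 0.00061). Its libraries overlapped, since culture 2 of the double mutant lay below culture 3 of the quadruple mutant.

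*col-131* had 5.80, 4.08, 5.05 and 6.11 CPM in the quadruple mutant and 16.3, 5.04, 13.4 and 17.1 CPM in the double mutant. *col-89* had 17.7, 11.1, 19.6 and 17.8 CPM in the quadruple mutant and 42.3, 19.6, 36.8 and 40.9 CPM in the double mutant. In both, culture 2 of the double mutant was again at the level of the quadruple mutant, and *col-89* was not called without culture 2 of the quadruple or culture 1 of the double mutant. *col-158* went against the group, at 14.9, 10.4, 15.4 and 13.6 CPM in the quadruple mutant and 2.91, 2.07, 4.06 and 2.61 CPM in the double mutant (log2 fold change 2.21 ± 0.26, SE, adjusted p = 4.4e-06). The summed CPM of the list overlapped between strains, at 10060 to 20230 in the quadruple mutant and 12710 to 18780 in the double mutant. The number called lower was 26 without culture 2 of the double mutant, 4 without its culture 1, 23 without culture 2 of both strains and 0 in the 8 libraries alone, while the median stayed between -0.39 and -0.27 with any 1 library left out.

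Hedgehog- and Patched-related genes, secreted and membrane proteins of the epidermis that take part in moulting, lay on the same side. Of 62 tested members 4 were called lower and 0 higher (1.54% and 0.412% of all genes tested). At an adjusted p under 0.05 with no minimum fold 33 were lower and 4 higher (13.6% and 5.14% of all genes tested). The median log2 fold change was -0.65. With *jmjd-5* intact the median was 0.10, and the difference between backgrounds was called for 1 member higher and 13 lower (1.09% and 1.81% of all genes tested). *wrt-9* had 5.29, 4.08, 7.36 and 2.44 CPM in the quadruple mutant and 16.5, 5.33, 11.8 and 12.7 CPM in the double mutant, a log2 fold change of -1.32 ± 0.31 (SE, adjusted p = 0.0053). *grd-2*, *grd-15* and *ptr-17* were called at -1.10, -1.17 and -1.15. The 4 calls were fragile. They were 0 without culture 1 of the quadruple mutant, without culture 1, 3 or 4 of the double mutant, or in the 8 libraries alone, 1 without culture 2 or 4 of the quadruple mutant, 7 without its culture 3, 13 without culture 2 of the double mutant and 6 without culture 2 of both. With upper quartile normalization factors they were 0 as well, and with near-identical libraries summed they were 2.

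Of 19 genes of the moulting cycle, *lin-42* alone was called (5.26%, against 1.95% of all genes tested), at -1.13 ± 0.27 (SE, adjusted p = 0.0065). It is the worm relative of Period and times the moults. It had 29, 16.7, 45.8 and 17.5 CPM in the quadruple mutant and 77.9, 38.8, 58.4 and 66.8 CPM in the double mutant, with overlap between culture 3 and culture 2. It was not called without culture 1, 2 or 4 of the quadruple mutant, without culture 1, 3 or 4 of the double mutant, in the 8 libraries alone, with upper quartile factors or with near-identical libraries summed. The number of the 19 called lower was 5 without culture 3 of the quadruple mutant, 4 without culture 2 of the double mutant and 3 without culture 2 of both. The median of the list was -0.43, and 7 members were lower and 0 higher at an adjusted p under 0.05 (13.6% and 5.14% of all genes tested).

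**Figure D4:**
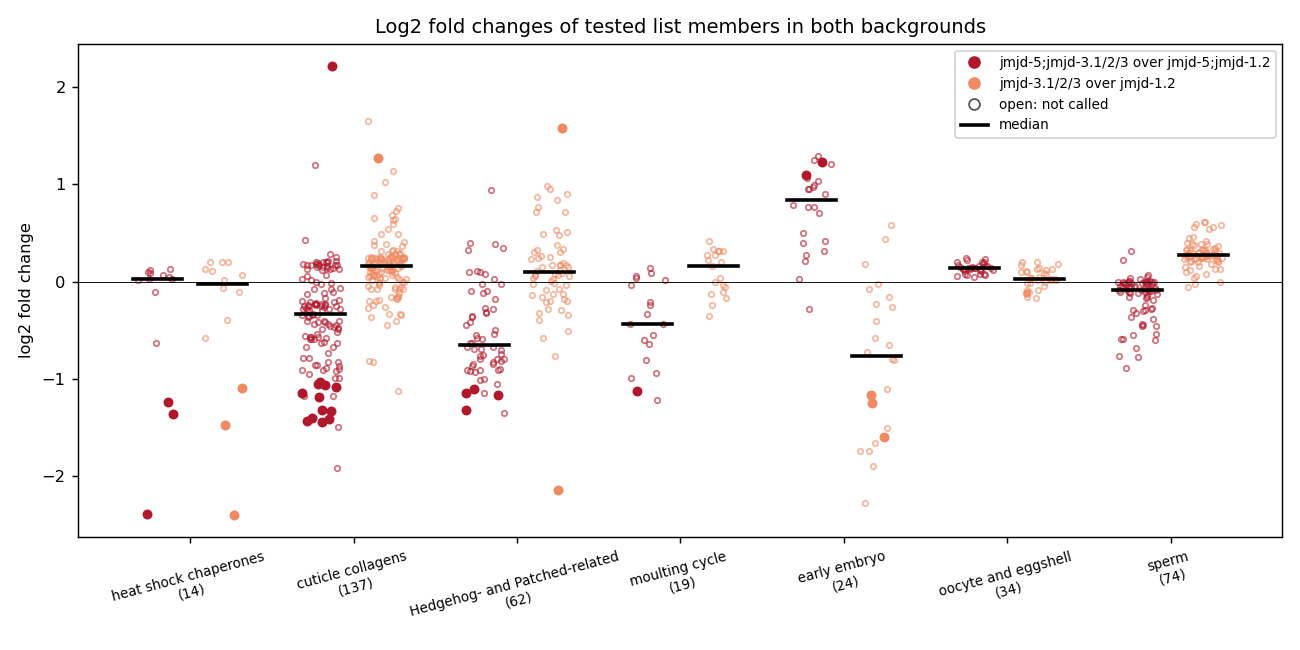
Log2 fold changes of the tested members of 7 gene lists (number tested in brackets), with *jmjd-5* mutated (red, quadruple over double mutant) and with *jmjd-5* intact (orange, triple over *jmjd-1.2* single mutant). Filled points are called genes, open points are not, and black lines are medians. Cuticle, Hedgehog-related and moulting genes lie lower and early embryo genes higher with *jmjd-5* mutated, at medians of -0.34, -0.65, -0.43 and 0.84.

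Transcripts of the early embryo lay the other way. The list holds genes first transcribed in the embryo, such as the very early transcripts (*vet*) and the zygotic genes that depend on the maternal factor SKN-1 (*sdz*), and young adults carry them in the eggs inside the uterus. Of 24 tested members 2 were called higher and 0 lower (0.412% and 1.54% of all genes tested). At an adjusted p under 0.05, 12 were higher and 0 lower (5.14% and 13.6% of all genes tested). The median log2 fold change was 0.84. With *jmjd-5* intact the median was -0.76, and 10 of the 24 were called higher in the difference between backgrounds (1.09% of all genes tested). *vet-1* had 14.9, 13.7, 10.7 and 16.6 CPM in the quadruple mutant and 4.12, 11.9, 5.18 and 5.43 CPM in the double mutant, a log2 fold change of 1.23 ± 0.26 (SE, adjusted p = 0.0031). *sdz-6* had 7.98, 5.57, 4.62 and 6.52 CPM in the quadruple mutant and 2.55, 1.78, 2.94 and 3.91 CPM in the double mutant. Culture 2 of the double mutant reached the quadruple mutant for *vet-1*.

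The summed CPM of the list were 266.7, 233.1, 230.3 and 278.8 in the quadruple mutant, against 159.8, 231.7, 172.6 and 185.0 in the double mutant. N2 had 257.9 to 273.8 and the *jmjd-5* single mutant 155.6 to 172.4. By these sums the quadruple mutant was near N2, and the double mutant, except culture 2, was near the *jmjd-5* single mutant. The 2 called genes differed in this. *vet-1* averaged 14 CPM in the quadruple mutant and 13.9 CPM in N2, and *sdz-6* 6.17 and 12.8 CPM. *vet-1* was also below N2 with *jmjd-5* intact, at 4.86 CPM in the triple and 7.9 CPM in the *jmjd-1.2* single mutant. The 2 calls became 0 without culture 1 or 4 of the quadruple mutant, without culture 1 or 3 of the double mutant or in the 8 libraries alone, 4 without culture 2 or 3 of the quadruple mutant, 7 without culture 2 of the double mutant and 11 without culture 2 of both.

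No germ cell list held a called gene. The 34 oocyte and eggshell genes, the 29 of germline proliferation and meiosis and the 30 of P granules and Argonautes had medians of 0.14, 0.04 and 0.07. All 34 oocyte and eggshell genes had positive log2 fold changes, none above 0.25. The 74 tested sperm genes had a median of -0.09, with 12 lower and 1 higher at an adjusted p under 0.05 (13.6% and 5.14% of all genes tested), a share of lower genes near that of all genes. Of the 74, 63 were negative here and 3 with *jmjd-5* intact. Nor was any gene called among the markers of neurons (29) and muscle (27), the Hox genes (6), the yolk genes (6), the histone methyltransferases (12), the superoxide dismutases and catalases (7), the fatty acid desaturases and elongases (16) or the cytosolic ribosomal proteins (79). Cultures of a strain differed widely in some of these lists. Summed CPM were 7582 to 22060 in the quadruple and 8029 to 18180 in the double mutant for ribosomal proteins. For yolk genes they were 3835 to 10750 and 3539 to 8700. Neuron markers varied less, at 977.2 to 1143 and 1067 to 1194. Where cultures differ so widely, the absence of calls does not show the absence of a change. At an adjusted p under 0.05 the 182 genes of all 8 lists held 6 lower and 2 higher (3.3% and 1.1%, beside 13.6% and 5.14% of all genes tested), and at an unadjusted p under 0.05 they held 16 (8.79%, beside 30.8% of all genes tested). The 8 lists are grouped here as lists without a call, and 79 of the 182 genes are ribosomal protein genes. These low shares follow in part from that grouping and do not show that the tissues or functions were unchanged. Among 22 intestinal genes, *mtl-1*, a metallothionein, was called at -1.28 ± 0.17 (SE, adjusted p = 3.2e-05), with 1.73 to 2.38 CPM in the quadruple mutant and 4.20 to 5.93 CPM in the double mutant. With the 8 libraries alone *mtl-1* was not called.

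Lists that the study drew from isolated germlines were compared here in whole worms. Of 400 genes higher in *jmjd-5* germlines 371 were tested, and 5 were called higher and 4 lower (2.43%, near the 1.95% of all genes tested), at a median of 0.02. *T22B7.7*, *C08F11.7*, *dhs-26* and *ZK177.9* were called higher, and so was the tyramine receptor gene *tyra-2*, by 1.70, 2.18, 1.94, 1.47 and 1.03 on the log2 scale in this order. *ZK177.9* and *tyra-2* were not called without culture 1 of the double mutant or in the 8 libraries alone, nor was *ZK177.9* without culture 1 and *tyra-2* without culture 4 of the quadruple mutant. *C15A11.4*, *C04G6.7*, *K02A2.5* and *sodh-2*, a gene for an alcohol dehydrogenase, were called lower, at -1.02, -1.17, -1.34 and -1.82, and were named after their values were seen. None of these 4 was called without culture 2 or 3 of the quadruple mutant or without culture 3 or 4 of the double mutant. Of 336 genes lower in *jmjd-5* germlines 319 were tested, and 1 was called (0.313%). This was *F28F8.7*, with 53.3, 53.4, 54.7 and 54.3 CPM in the quadruple mutant and 26.9, 26.1, 27 and 26.1 CPM in the double mutant, a log2 fold change of 1.02 ± 0.07 (SE, adjusted p = 1.5e-09). Its value lies at the fold required for a call, and it was not called without culture 4 of either strain. The study counts 45 soma-specific genes among the 400, so that they are a part of that list. None of the 45 was called, at a median of -0.09 with 5 lower at an adjusted p under 0.05 (11.1%, beside 13.6% of all genes tested).

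Calls among immune effectors and lectins went in both directions. Of 199 tested members 5 were called higher and 8 lower (6.53%, against 0.412% higher and 1.54% lower over all genes), and the median log2 fold change was 0.01. Beside *spp-21*, *ilys-2*, *ilys-3* and *irg-1*, the caenacin gene *cnc-4*, an antimicrobial peptide gene, was lower near the fold required, with 12.6, 9.28, 16.5 and 17.4 CPM in the quadruple mutant and 31.2, 24.3, 30.9 and 28.8 CPM in the double mutant (log2 fold change -1.01 ± 0.14, SE, adjusted p = 4.3e-05). It was not called without culture 1 or 2 of the quadruple mutant, without culture 1 or 3 of the double mutant, without culture 2 of both, in the 8 libraries alone, with RLE factors or with no filter on low counts. *clec-174*, a C-type lectin gene, gave 16 and 77 counts over the quadruple and double mutant libraries and was called at -2.14 ± 0.39 (SE, adjusted p = 0.00082). The calls were 5 and 15 without culture 2 of the double mutant, 6 and 13 without culture 2 of both strains, 3 and 6 with upper quartile factors and 1 and 1 in the 8 libraries alone. Fewer were called without 1 of the other libraries, with 1 and 5 as the lowest without culture 1 of the quadruple mutant.

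F-box, BTB and MATH genes form large families of ubiquitin ligase adaptors in worms. Of 257 tested members 7 were called higher and 5 lower (4.67%, against 1.95% of all genes tested). The difference between backgrounds was called for 30 of them, 22 higher and 8 lower, where 1.09% and 1.81% of all genes tested were called. *math-38* had 7.36, 4.45, 4.04 and 5.57 CPM in the quadruple mutant and 1.21, 0.889, 1.96 and 1.74 CPM in the double mutant, a log2 fold change of 1.86 ± 0.28 (SE, adjusted p = 0.00012), and was called with *jmjd-5* intact as well. *fbxa-120* was higher by 1.10 and *fbxc-28* by 1.6, and *fbxa-120* was not called without culture 1 of either strain. Neither *math-38* nor *fbxa-120* was called in the 8 libraries alone. The calls were 12 and 8 without culture 2 of the double mutant, 2 and 3 without culture 1 of the quadruple mutant, 16 and 7 without culture 2 of both strains, 4 and 5 with upper quartile factors and 1 and 1 in the 8 libraries alone. The neighbouring genes *skr-8* and *skr-9* encode Skp1-related proteins, the partners of F-box proteins, and were higher as well, *skr-8* by 1.25 ± 0.24 and *skr-9* by 1.19 ± 0.29 (SE, adjusted p = 0.0014 and 0.0068). Neither was called without culture 1 of the double mutant or in the 8 libraries alone. *skr-9* was also not called without culture 1 or 4 of the quadruple mutant, without culture 3 or 4 of the double mutant, with upper quartile factors or with near-identical libraries summed. *skr-8* had 8.39, 6.31, 7.51 and 11.4 CPM in the quadruple mutant and 2.43, 6.22, 2.80 and 4.24 CPM in the double mutant. Both were chosen after their values were seen, and reads of the pair may be split where their sequences are alike.

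Of 81 tested chemoreceptor genes 2 were called higher, among them *srbc-15*, and 5 lower (8.64%, against 1.95% of all genes tested), at a median of -0.08. *str-180* had 2.28, 3.71, 2.74 and 3.12 CPM in the quadruple mutant and 9.46, 2.07, 8.54 and 8.80 CPM in the double mutant, so that its culture 2 alone reached below the quadruple mutant. *srh-2* and *str-146* were lower by -1.32 and -1.11, and *str-146* was not called without culture 3 of the quadruple mutant. Of 98 neuropeptide and insulin-like genes 2 were called lower (2.04%, near the 1.54% of all genes tested). *ins-20*, an insulin-like gene, had 1.14, 0.371, 1.59 and 1.09 CPM in the quadruple mutant and 3.76, 2.67, 4.76 and 4.89 CPM in the double mutant (log2 fold change -1.84 ± 0.29, SE, adjusted p = 0.00019), and *ins-35* gave 38 and 107 counts (-1.39 ± 0.33, SE, adjusted p = 0.0057). *ins-35* was not called without culture 1, 2 or 4 of the quadruple mutant, without culture 1 or 4 of the double mutant or with upper quartile factors. Of the chemoreceptor and insulin-like genes named here, *srbc-15* alone was called in the 8 libraries alone.

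Of 159 P450, UGT and GST genes 1 was called higher and 2 lower (1.89%, against 1.95% of all genes tested). *cyp-25A1* had 37.3, 30.8, 31.0 and 32.2 CPM in the quadruple mutant and 16.7, 13.6, 16.0 and 14.8 CPM in the double mutant, a log2 fold change of 1.10 ± 0.10 (SE, adjusted p = 8.9e-08). *cyp-13B1* and *cyp-32B1* were lower by -1.08 and -1.22. Neither was called in the 8 libraries alone, and *cyp-13B1* was not called without culture 2 of the quadruple mutant. Of 191 nuclear hormone receptors 2 were called higher (1.05%). *nhr-38* had 4.77, 4.82, 5.92 and 3.94 CPM in the quadruple mutant and 1.09, 0.296, 1.12 and 1.09 CPM in the double mutant, and *nhr-235* was higher by 1.22. The homeobox gene *ceh-86* was the 1 called among 71 factors of 4 families (homeobox, bHLH, T-box and GATA), at 1.11, and the linker histone gene *hil-8* the 1 called among 32 histone genes, at -1.6 with 44 and 139 counts. Neither of these, nor *nhr-235*, was called in the 8 libraries alone, and *ceh-86* was not called without culture 1 or 4 of the quadruple mutant or without culture 4 of the double mutant.

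Whether the contrast depended on *jmjd-5* was tested as the difference of the 2 contrasts, the one between the compound mutants minus the one between the triple and the *jmjd-1.2* single mutant. The difference was called higher for 169 genes and lower for 281 (1.09% and 1.81% of genes tested, 2.9% in all). *dhs-26*, a gene for a short-chain dehydrogenase, turned round. It had 15.4, 10.4, 8.81 and 13.4 CPM in the quadruple mutant and 3.27, 2.96, 3.08 and 3.37 CPM in the double mutant, while the triple mutant had 3.72 to 7.06 CPM and the *jmjd-1.2* single mutant 17.1 to 22.5 CPM. The log2 fold changes were 1.94 ± 0.20 with *jmjd-5* mutated and -1.83 with *jmjd-5* intact, and their difference was 3.77 (adjusted p = 2.8e-09).

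*T22B7.7* had 103, 128, 84.5 and 111 CPM in the quadruple mutant and 27.5, 32.3, 34.2 and 35.5 CPM in the double mutant. The double mutant stood alone, since the other 4 strains spanned 84.4 to 138 CPM. The log2 fold change was 1.70 ± 0.11 (SE) here and -0.25 with *jmjd-5* intact, a difference of 1.95 (adjusted p = 6.8e-09). *F56A4.3*, described above, is the third gene named in this direction, at a difference of 6.61 (adjusted p = 9.5e-10).

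In the other direction, *W03C9.1* had 6.74, 8.17, 5.78 and 5.30 CPM in the quadruple mutant and 18.7, 12.7, 14.8 and 19.1 CPM in the double mutant. With *jmjd-5* intact the triple mutant had 13.8 to 15.7 CPM and the *jmjd-1.2* single mutant 9.97 to 14.7 CPM. The difference between the contrasts was -1.72 (adjusted p = 2.5e-05). *fbxc-42* and *F45D11.1* had no counts in the *jmjd-1.2* single mutant, one of the strains in the difference. *fbxc-42* had 18.6 to 24.5 CPM in the quadruple mutant and 13.7 to 19 CPM in the double mutant, 11.3 to 14.9 CPM in the triple mutant and 13.2 to 20.7 CPM in N2, but 0 counts in the *jmjd-1.2* single mutant and at most 0.138 CPM in the *jmjd-5* single mutant. *F45D11.1* had 2.97 to 4.19 CPM in the quadruple mutant and 2.28 to 6.31 CPM in the double mutant, with 0 counts in the *jmjd-1.2* single mutant and at most 0.129 CPM in the *jmjd-5* single mutant. Neither was called between the compound mutants.

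**Figure D5:**
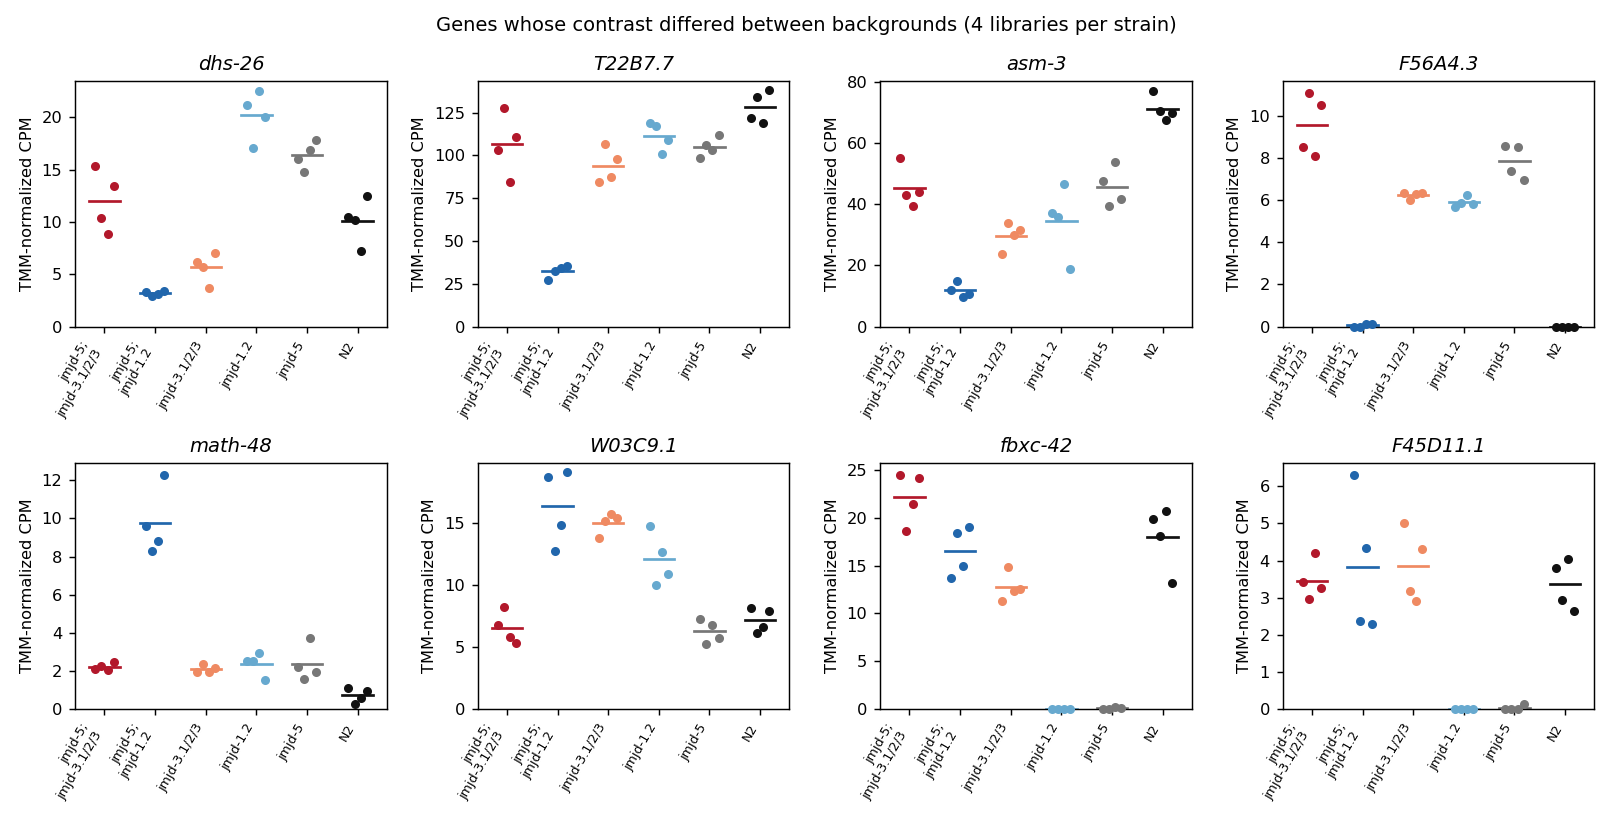
TMM-normalized expression (CPM, linear axis from 0) of 8 genes whose contrast differed between backgrounds, in the 4 libraries (points) of each of 6 strains, with the strain mean as a line. *T22B7.7* and *asm-3* are lowest and *math-48* is highest in the double mutant, *dhs-26* turns round, and *F56A4.3*, *fbxc-42* and *F45D11.1* are at or near 0 in 2 strains each.

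Called genes were also set against their place in the genome, by their order in a reference table. Among the 25 tested genes on either side of each mutated locus, 0 of 50 were called at *jmjd-5*, *jmjd-1.2* and *jmjd-3.2*, 1 at *jmjd-3.1* (*F18E9.7*) and 2 at *jmjd-3.3* (*cyp-13B1* and *R01E6.2*), beside 1.95% of all genes tested. *F18E9.7* and *R01E6.2* were among the less stable calls, and neither was called with upper quartile factors. The order, here and for neighbours named above, runs over tested genes, with untested genes between them left out. Of the 302 called genes that could be placed, 20 pairs were next to each other in this order and called the same way. They included *hsp-16.2* with *hsp-16.41*, *F56A4.3* with *srbc-15*, *math-48* with *ZK250.14*, *ilys-2* with *ilys-3* and *skr-8* with *skr-9*. The share of such pairs among other genes was not computed.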

How the data were processed

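RNA of whole young adults (25°C, F3) of 6 strains was compared, with 4 cultures per strain. Per the authors' methods, reads were aligned to ce10 with STAR without multimapping reads, duplicates were removed with samblaster and genes were counted with featureCounts. The authors deposited raw counts per gene, with no normalization. Peak lists and the authors' tables of fold changes and p-values were not used here. Strand is not stated for the counting, so that overlapping genes may share reads.

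The 24 libraries (3087933 to 9906241 counts) were fitted together with edgeR 4.0.16 in R 4.3.3 (quasi-likelihood test, TMM factors, filterByExpr, a model with strain alone). The tables hold 42048 genes, of which 24015 have a count and 15524 entered the test. A call required a p under 0.01 after Benjamini-Hochberg adjustment over all of these and a change of 1 or more on the log2 scale. SE is the fold change divided by the root of F. CPM are TMM-normalized. Intervals and the bound from 3 counts per library cover counting error only.

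Named genes are the histone demethylases, the 12 largest increases and 12 largest decreases among called genes with separated libraries and at least 5 CPM in every library of the higher strain, up to 4 called members of each list by adjusted p, and 3 genes per direction for the difference between backgrounds. The comparison, the lists and these rules were chosen with earlier results of these data known. The list of *pals* genes matched no gene of the tables under that name. Lists are described by counts and medians, with no set test.

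The fit was tested on simulated counts with known changes. Of 200 genes changed 3-fold in the quadruple mutant 179 were recovered, and 0 unchanged genes were called. The simulation gave all strains the same spread and no deviating culture. It therefore cannot show how the fit behaves with libraries such as culture 2. Alternatives were other normalizations (RLE, upper quartile), DESeq2 1.42.0, other filters and thresholds, only the 8 libraries compared, a replicate block, the log2 library total as a term and each library left out. Leaving out culture 2 of both strains, and summing near-identical libraries, were added after seeing the data. A RefSeq table of WBcel235 served for names and neighbour order only.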

Additional observations from a re-analysis of the deposited data

Results flagged for a closer look

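In 8 of 164 groups of 4 libraries (82 genes in 2 strains), 1 library stood far from the other 3, and chance gives about 1 in 20. In the double mutant these were culture 2 for *jmjd-5* (84.7 CPM, others 76.0 to 77.5), *vet-1* (11.9, others 4.12 to 5.43), *str-180* (2.07, others 8.54 to 9.46) and *nhr-38* (0.296, others 1.09 to 1.12), and culture 4 for *F18E9.7* (1.09, others 0 to 0.14). In the quadruple mutant they were culture 3 for *Y48E1B.8* (42.9, others 58.5 to 60), *Y38H6C.21* (2.74, others 1.11 to 1.22) and *pqn-63* (14.4, others 7.47 to 8.60). Culture 2 of the double mutant thus made up 4 of the 8, and it is also the shallower library. The part of depth in this was not tested.

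For 26 named genes the contrast differed between backgrounds (compound mutants minus triple against *jmjd-1.2* single mutant, log2 scale), beside 2.9% of all genes tested. It was higher with *jmjd-5* mutated for *F56A4.3* (6.61), *srbc-15* (5.34), *dhs-26* (3.77), *fbxc-28* (2.30), *asm-3* (2.23), *vet-1* (1.96), *T22B7.7* (1.95), *C08F11.7* (1.80), *tyra-2* (1.80), *ceh-86* (1.57), *nhr-235* (1.56), *R08F11.4* (1.55), *fbxa-120* (1.32) and *Y48E1B.8* (1.13). It was lower for *fbxc-42* (-8.95), *F45D11.1* (-7.88), *F15B9.6* (-2.01), *jmjd-1.2* (-2.0), *math-48* (-1.97), *col-176* (-1.93), *hil-8* (-1.72), *W03C9.1* (-1.72), *grd-2* (-1.61), *ilys-2* (-1.54), *col-131* (-1.50) and *col-89* (-1.03). For *jmjd-1.2* both contrasts set full expression against a few counts, for *fbxc-42* and *F45D11.1* the *jmjd-1.2* single mutant had none, and *F56A4.3* and *srbc-15* had 2 counts each over the double mutant libraries, so that these 5 fitted values depend on how counts at or near 0 are handled. The count of 26 is not a rate to set against the 2.9%. The rule named 3 genes per direction by this difference, and many others by the compound mutant contrast, which is part of it.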

How the results depend on the processing

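Counts are given as higher and lower. For the compound mutants (64 and 239) they were 21 and 20 in the 8 libraries alone, 13 and 8 when tested against a log2 fold change of 1, 359 and 904 with no minimum fold, 104 and 378 at an adjusted p under 0.05, 122 and 444 without culture 2 of both strains, and 152 lower with upper quartile factors. DESeq2 gave 71 and 235. Leaving out 1 library gave 39 to 97 and 83 to 544. For the triple against the *jmjd-1.2* single mutant (68 and 138) they were 9 and 7 against a log2 fold change of 1, 472 and 957 with no minimum fold, 220 lower at an adjusted p under 0.05 and 139 higher with the library total as a term, and 44 to 89 and 71 to 143 without 1 library. For the difference between backgrounds (169 and 281) they were 4 and 3 against a log2 fold change of 1, 464 and 769 with no minimum fold, 265 and 511 at an adjusted p under 0.05, and for genes called lower 160 with upper quartile factors, 716 with the library total and 618 without culture 2 of both compound mutants. Without 1 library they were 97 to 208 and 151 to 675. The causes were not tested, apart from the fewer libraries or stricter rule that a setting itself brings.

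The labels do not say that culture numbers pair the strains. Same-numbered deviations correlated at 0.297, 0.461, 0.0701 and 0.266, all positive but not all over 0.1, and only culture 2 correlated best with its own number in both directions, so that the cultures were not taken as pairs and shared preparation was not tested. With a replicate block 72 and 344 genes were called between the compound mutants, among them all 303, and 422 lower for the difference. None of 73 named calls reversed in any alternative. Tested against a log2 fold change of 1, 54 of the 73 were lost, 38 of the 68 that could be tested were lost in the 8 libraries alone, 12 with upper quartile factors, and 0 to 21 without 1 library. Weakly expressed genes are limited by depth, most of all in culture 2.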
